A study of Mus musculus with 18 samples.

Results

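The oxidative phosphorylation subunits were examined in the eyecups of *rd1* mice, as the protein-coding genes of the count table whose symbols mark them as parts of the 5 respiratory complexes: *mt-Nd*, *mt-Co*, *mt-Cytb* and *mt-Atp* from the mitochondrial genome, and *Nduf*, *Sdh*, *Uqcr*, *Cox4* to *Cox8* and *Atp5* from the nuclear genome. This rule took 97 of the 47729 genes, 13 of them mitochondrially encoded and 84 nuclear. By name, 44 belonged to complex I, 4 to complex II, 9 to complex III, 21 to complex IV and 19 to complex V. *Ndufa4* was kept with complex I by its symbol, although its protein is now placed with complex IV. No expression value was used to choose the genes.

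The data were poly(A) RNA libraries of 18 eyes from 9 mice at P40, all labelled *rd1* (FVB/N in the methods). The study's methods count fewer *rd1* pairs at this age and put others in the CD1 strain, which has rods, so the genotype given here is that of the labels. By the labels both groups shared the *rd1* genotype, a mutation of *Pde6b*, which encodes a rod phosphodiesterase and whose loss kills the rods early. *Pde6b* was at 0 to 0.55 CPM (counts scaled to the size of the library) over the 18 libraries. In each mouse, 1 eye received AAV8-Best1-Nrf2, with the human Nrf2 cDNA under the human Best1 promoter of the retinal pigment epithelium (RPE), together with AAV-Best1-GFP. The other eye of the mouse got only AAV-Best1-GFP and served as the control. Per the methods, the GFP vector had another capsid, and the eyes given both vectors got a higher total dose. Dose and capsid thus cannot be told apart from Nrf2 in this comparison. There were 9 eyes in each group, Best1-Nrf2 and control, and the comparison asked how the subunits differed between the eyes of a mouse. The promoter is meant to confine expression to the RPE, whereas the eyecup, from which the retina was taken off, also holds other cells. In such bulk RNA, fewer cells of a type and less RNA per cell cannot be told apart.

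Oxidative phosphorylation passes electrons from NADH and succinate through complexes I to IV to oxygen, and complex V uses the proton gradient that builds up to make ATP. Complexes I, III, IV and V combine subunits translated in the mitochondrion with others imported from the cytosol, whereas complex II is made only of nuclear products. The RPE is rich in mitochondria and relies on them to spare glucose for the photoreceptors. Nrf2 is the transcription factor that switches on antioxidant genes through the antioxidant response element, and nuclear respiratory factor 1 (NRF1, a different protein despite its name) is a known activator of respiratory subunit genes.

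Library totals ranged from 18956748 to 49598700 counts, control replicate 8 being the smallest. *Nfe2l2*, the gene of Nrf2, was measured at 76.7 to 134 CPM in control eyes and at 275 to 704 CPM in Best1-Nrf2 eyes, and was higher in 9 of 9 mice (log2 fold change 2.29, SE 0.21, edgeR adjusted p = 6.2e-05). With the mean of the rod and cone markers as a covariate its log2 fold change was 1.90, with an SE of 0.46 and an edgeR adjusted p of 0.069. Counts per gene do not separate the human cDNA from the mouse gene. The sum of 16 RPE markers was 14152 to 80125 CPM, high in every library. Markers of several cell types differed between the groups: 10 of 11 cone markers and 6 of 16 RPE markers were lower in Best1-Nrf2 eyes, whereas 6 of 12 macrophage and microglia markers and 2 of 9 fibroblast and sclera markers were higher. Of 9 rod markers tested, 3 were lower and 1 was higher. The sum of the cone markers was 1775 to 2298 CPM in control replicates 1, 2, 3 and 9 and 308 to 826 CPM in the other 5 control eyes. No skeletal muscle marker of 16 passed the test, but their sum was 2839 CPM in Best1-Nrf2 replicate 3, against 45.9 to 848 CPM in the other 17 libraries. The part of these cells in the values below was not tested, except where a covariate is named.

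None of the subunits passed the test between Best1-Nrf2 and control eyes. Of the 97, 95 had enough counts to be tested, and 0 were called at an adjusted p of 0.05 by edgeR's quasi-likelihood test with mouse as a block. Over all 18958 genes tested, 4.25% were called. At an unadjusted p of 0.05, the count of subunits was again 0, against 12.8% of all genes, and DESeq2 also called 0. No subunit had the same direction in all 9 mice, which 4.36% of all genes did, and for none did the groups fail to overlap, as was the case for 1.17% of all genes. The smallest p belonged to *Ndufb4*, an accessory subunit of complex I (log2 fold change 0.61, SE 0.31, adjusted p = 0.466, higher in 7 of 9 mice). *Ndufb4* has a processed pseudogene, *Ndufb4c*, which held 77.2% of the counts of both, and 19.1% of the stretches of 31 bases in *Ndufb4* recur in other annotated genes, so its level is uncertain. The subunits not tested were *Cox7b2* and *Cox8c*, testis-type isoforms of complex IV, with 75 and 4 counts over all libraries.

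How large a change could have gone unseen differed between the subunits. For 79 of 95, the 95% interval of the fold change lay within 2-fold either way, compared with 54.1% of all genes tested. Among the subunits with the tightest intervals was *Ndufv1*, the NADH-binding subunit of complex I (log2 fold change 0.04, 95% interval -0.27 to 0.35). The widest belonged to *Cox6a2*, the heart and skeletal muscle form of a complex IV subunit (0.98, -0.77 to 2.73).

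**Figure D1:**
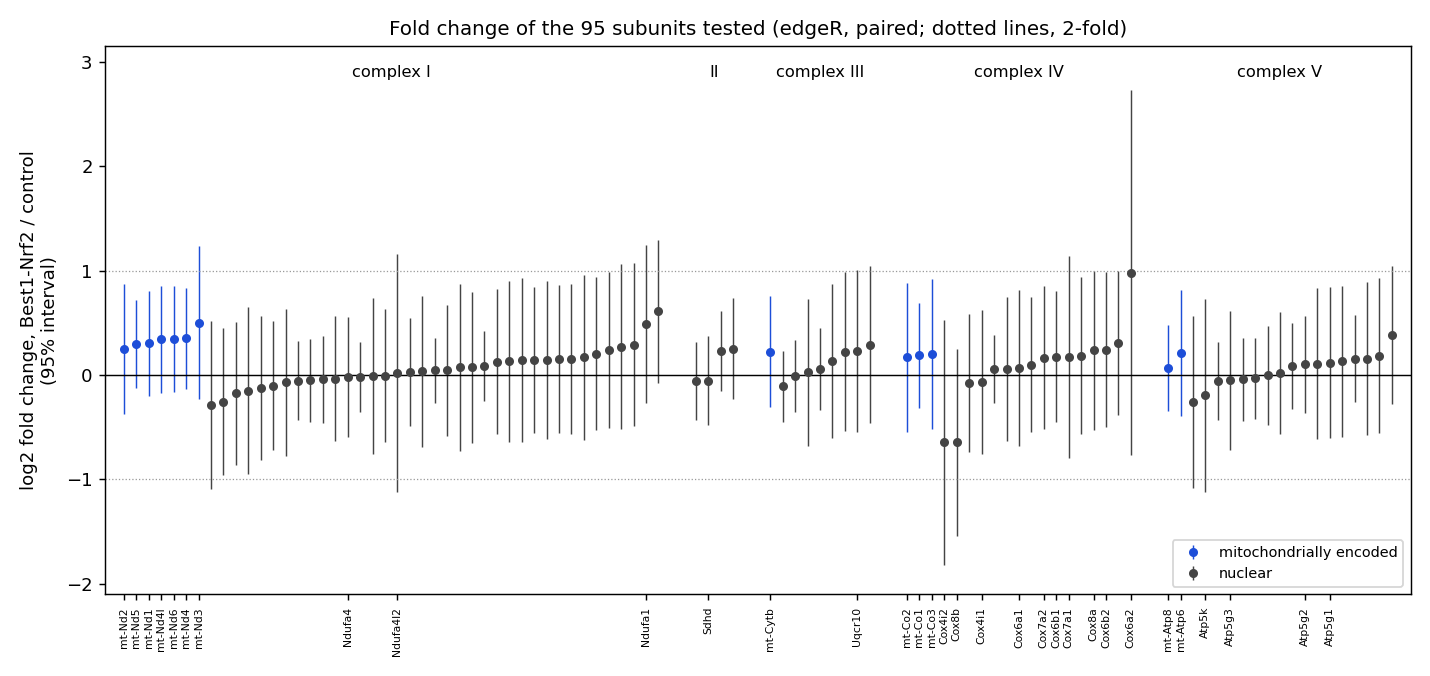
Each point is 1 of the 95 subunits tested, with the log2 fold change of Best1-Nrf2 over control eyes and its 95% interval on the vertical axis, grouped by complex and by genome, and with names under the mitochondrially encoded subunits, the isoform pairs, the c-ring genes and the highest nuclear subunit of each complex. All 95 intervals cross 0, and the 13 mitochondrially encoded points lie above it, between 0.07 and 0.50.

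The mitochondrially encoded subunits all had fold changes slightly above 0, and none of them was significant. Their median log2 fold change was 0.25, with 13 of 13 above 0 and a range from 0.07 to 0.50. The nuclear subunits had a median of 0.07, with 52 above and 30 below 0, and the median of all genes tested was -0.03. By complex, the medians were 0.08 for complex I, 0.09 for complex II, 0.13 for complex III, 0.17 for complex IV and 0.09 for complex V. These medians were small beside the spread between mice. The difference between the eyes in mean log2 CPM over the 13 mitochondrial subunits was 0.27 ± 0.71 (SD, n = 9), and over the 82 nuclear subunits 0.07 ± 0.84 (SD, n = 9). Without mouse 6 the mitochondrial median was 0.11 and the nuclear one -0.08, and without mouse 5 they were 0.39 and 0.23. The nuclear median was also below 0 without mouse 4 (-0.0077), without mouse 8 (-0.02) and with the mean of the skeletal muscle markers as a covariate (-0.02). Without mouse 6 the medians of complexes I, III, IV and V turned to -0.08, -0.0017, -0.03 and -0.07, and without mouse 5 they were 0.32, 0.33, 0.37 and 0.18. Without mouse 8 those of complexes I, II, III and V were -0.01, -0.01, -0.0060 and -0.01. That of complex V was also below 0 without mouse 4 (-0.0048) and with the skeletal muscle covariate (-0.01). *mt-Co2*, *mt-Co3* and *mt-Atp8* were just below 0 without mouse 6. With the mean of the rod and cone markers as a covariate, which itself differed between the groups, the median was 1.21 for the mitochondrial and 1.46 for the nuclear subunits, with 0 of 95 called. In that fit 68 of 95 had an unadjusted p under 0.05, all of them higher in Best1-Nrf2 eyes, against 20.5% of all genes in either direction and 9.63% higher. The smallest adjusted p of a subunit there was 0.080 by edgeR.

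Among the mitochondrial subunits, those of complex I had the larger estimates. *mt-Nd3*, a small membrane subunit, was at 39.8, 62.6 and 498 CPM (lowest, median, highest) in control eyes and at 52.6, 87.3 and 1418 CPM in Best1-Nrf2 eyes. The groups overlapped over most of their range, and the highest value of each group was that of mouse 3. The log2 fold change of *mt-Nd3* was 0.50 (SE 0.34, edgeR adjusted p = 0.63, higher in 6 of 9 mice). *mt-Nd4*, *mt-Nd4l* and *mt-Nd6* followed with 0.35, 0.34 and 0.34, then *mt-Nd5* and *mt-Nd1* with 0.30 each and *mt-Nd2* with 0.25. All of these encode membrane subunits of the proton-pumping arm of complex I, and their adjusted p values ran from 0.60 to 0.84.

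The other mitochondrial subunits were nearer to 0. *mt-Cytb*, the cytochrome b of complex III, was at 1859, 2606 and 4975 CPM in control eyes and at 1839, 3229 and 6173 CPM in Best1-Nrf2 eyes, with a log2 fold change of 0.22. *mt-Co1*, the catalytic subunit of complex IV, ranged from 1753 to 3740 CPM in control and from 1771 to 4114 CPM in Best1-Nrf2 eyes, so that the ranges nearly coincided (log2 fold change 0.19, SE 0.23). *mt-Co2* and *mt-Co3*, the other core subunits of complex IV, had log2 fold changes of 0.17 and 0.20. For complex V, *mt-Atp6*, which forms part of the proton channel, had 0.21 and *mt-Atp8*, its small partner, 0.07, the lowest of the 13. These 6 had adjusted p values from 0.83 to 0.95.

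The 13 mitochondrial genes lie on chrM between 2751 (*mt-Nd1*) and 15288 (*mt-Cytb*) of GRCm38, and parts of that sequence also exist as copies in the nuclear genome. Of the stretches of 31 bases in *mt-Co2*, 100% were also found in other annotated genes, as were 99.9% of *mt-Co3*, 99.5% of *mt-Atp6*, 98.9% of *mt-Nd4l* and 98.1% of *mt-Nd3*. The copy of *mt-Co1* called *Gm29216* held 40.3% of the counts of both genes together, and the copy of *mt-Nd3* called *Gm28438* held 31.2%, so the levels of *mt-Co1* and *mt-Nd3* are uncertain. The copies of *mt-Co2*, *mt-Co3*, *mt-Atp6* and *mt-Nd4l* held few counts, at most 0.15% of the counts of both genes in a pair. When the counts of the copies were added to the mitochondrial gene, the median log2 fold change of the 13 was again 0.25.

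Per kilobase of exon, the mitochondrial messages spanned a wide range of levels. The highest was *mt-Co3* with 8226 ± 5159 CPM per kb (SD over 18 libraries), followed by *mt-Co2* with 4509 ± 3002 and *mt-Atp6* with 4316 ± 2163 CPM per kb. *mt-Cytb* had 2918 ± 1102, *mt-Nd1* 1933 ± 845 and *mt-Co1* 1805 ± 465 CPM per kb, and the lowest was *mt-Nd4l* with 393 ± 265 CPM per kb. Neighbours among the 13 differed by less than the larger of their SDs, except *mt-Co1* and the next, *mt-Nd4*, with 1013 ± 468 CPM per kb. The highest nuclear subunit was *Cox8b* of complex IV, with 3746 ± 7325 CPM per kb, although its level came largely from a few libraries. In complex III, *Uqcr10*, a small accessory subunit, led with 1087 ± 1893 CPM per kb, and in complex I, *Ndufa1*, a short membrane subunit, with 889 ± 1489 CPM per kb, hardly above *Ndufa4* with 885 ± 775 CPM per kb. Per kilobase of the median coding transcript in place of merged exons, *Ndufa4* was at 2612 CPM per kb and stood above *Ndufa1*. On that scale *Uqcr11* with 1486 CPM per kb was just above *Uqcr10* with 1463, and *Sdhb* with 195 just above *Sdhd* with 192, so which of them leads depends on the length used. *Atp5k*, a membrane subunit linked to dimers of complex V, led its complex with 648 CPM per kb of merged exons, and *Sdhd*, a membrane anchor, led complex II with 192 CPM per kb. Best1-Nrf2 replicate 3 weighed heavily on these means. Without it, *Cox8b* was at 2192, *Uqcr10* at 670.0, *Ndufa1* at 559 and *Atp5k* at 353 CPM per kb of merged exons, whereas *Ndufa4* was at 787 and *Sdhd* at 193. *Ndufa4* then led complex I, and it was above *Ndufa1* in 14 of 18 libraries. *Atp5k* was then hardly above *Atp5h*, a stalk subunit, with 349 CPM per kb. By the median over 18 libraries, *Atp5b* led complex V with 305 CPM per kb, against 151 for *Atp5k*.

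Most subunits varied together between eyes, over a range far wider than the difference between the groups. The mean log2 CPM of the 82 nuclear subunits ran from 6.50 to 9.27 over the 18 libraries, a 6.81-fold range, and that of the 13 mitochondrial subunits spanned 4.93-fold. Best1-Nrf2 replicate 3 was the highest library for 46 of 82 nuclear and 12 of 13 mitochondrial subunits, and control replicate 3 for 16 nuclear subunits, both from mouse 3. Control replicate 5 and Best1-Nrf2 replicates 6 and 8 were the next highest. Not every subunit followed. *Sdhc* of complex II was at 38.9 CPM in control replicate 3, against a median of 84.9 CPM in control eyes. In Best1-Nrf2 replicate 3 it was at 34.6 CPM, against a median of 103 CPM in Best1-Nrf2 eyes. Joint variation over all subunits was not tested. In control eyes, the lowest, median and highest mean over nuclear subunits were 6.55, 7.14 and 8.87, and in Best1-Nrf2 eyes 6.50, 7.12 and 9.27, so the groups covered almost the same range.

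**Figure D2:**
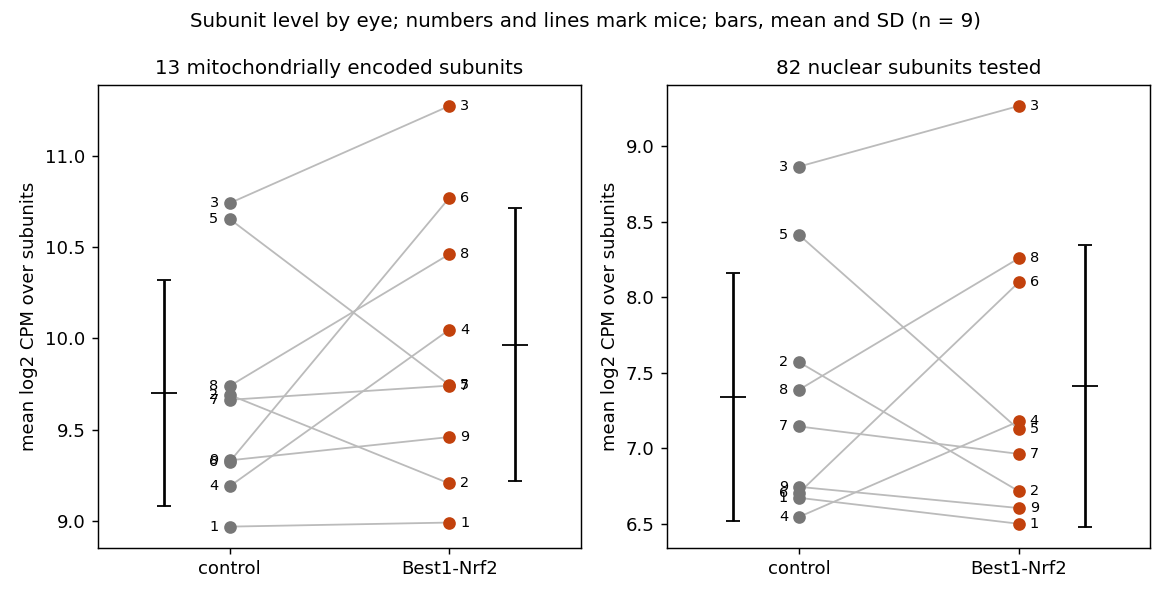
Mean log2 CPM of the 13 mitochondrially encoded (left) and the 82 tested nuclear subunits (right) is plotted for every eye, with lines joining the eyes of a mouse, numbers naming the mouse, and bars for the mean and SD of 9 eyes. Mice 3, 4, 6 and 8 rise and mice 2 and 5 fall in both panels, and the groups overlap.

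Within a mouse, most subunits went the same way, but the way differed from mouse to mouse. In mice 4, 6 and 8, 79, 77 and 77 of the 82 nuclear subunits were higher in the Best1-Nrf2 eye, and in mice 2 and 5 only 1 and 4 were. Mouse 3 was the most mixed, with 54 higher and 28 lower. The mean difference of the nuclear subunits was 1.39 on the log2 scale in mouse 6, 0.87 in mouse 8, 0.63 in mouse 4 and 0.40 in mouse 3, against -1.29 in mouse 5 and -0.85 in mouse 2. Mice 1, 7 and 9 showed small differences, from -0.18 to -0.14. The mean was thus higher in 4 mice and lower in 5, and only the largest differences on each side were alike in size.

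The ribosomal protein genes, many of which also have short coding sequences, moved with the subunits. Their mean log2 difference between the eyes was 1.11 in mouse 6 and 0.61 in mouse 3, and -0.86 in mouse 5 and -0.55 in mouse 2. Exceptions were mice 1 and 9, where the ribosomal protein genes were higher by 0.36 and 0.56 while the nuclear subunits were lower, and mouse 8, where they were higher by only 0.11. The share of counts from these genes ran from 0.422% to 2.58% over the libraries, highest in Best1-Nrf2 replicate 3. The sum of the hemoglobin and other red blood cell markers was 5347 CPM in that eye, 3646 and 1761 CPM in Best1-Nrf2 replicates 6 and 8, and 3175 and 2973 CPM in control replicates 5 and 3, against 295 to 1357 CPM in the other 13 libraries. These 5 are also the libraries with the highest means of the nuclear subunits. The sum of the RPE markers was 53674 to 80125 CPM in 4 of them, all but Best1-Nrf2 replicate 8 (27231 CPM), and 14152 to 42706 CPM in the others. The part of these markers in the subunit levels was not tested. With the mean of the ribosomal protein genes as a covariate beside the mouse block, the median log2 fold change was 0.11 for the mitochondrial and -0.08 for the nuclear subunits, and 0 of 95 were called. This covariate was chosen after the data were seen.

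The mitochondrial subunits were slightly higher relative to the nuclear ones in most Best1-Nrf2 eyes. The ratio of summed mitochondrial to summed nuclear subunit counts was 0.984 ± 0.202 in control and 1.13 ± 0.302 in Best1-Nrf2 eyes (SD, n = 9 each), and in 8 of 9 mice the Best1-Nrf2 eye had the higher ratio, the exception being mouse 3. By mean log2 CPM, the mitochondrial difference also exceeded the nuclear one in 8 of 9 mice, from 0.05 in mouse 6 to 0.38 in mouse 5, but here the exception was mouse 8, with -0.15. These are descriptions of sums over the subunits and carry no test. Relative to the nuclear mean of each library, only *mt-Nd4l* and *Ndufb4* were higher in all 9 mice. That is 2 of 95 subunits, against 2.64% of all genes with the same direction in all 9 mice on this scale.

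As a share of all counts, the 13 mitochondrial subunits made up 2.20% ± 0.764 in control and 2.50% ± 1.02 in Best1-Nrf2 eyes (SD, n = 9 each), and 6 of 9 mice had more in the Best1-Nrf2 eye. The mean difference was 0.30 percentage points, with an SD of 1.16 over mice, and fell to 0.018 without mouse 6 and rose to 0.534 without mouse 5. The nuclear subunits made up 2.45% ± 1.46 in control and 2.60% ± 2.05 in Best1-Nrf2 eyes, from 1.22% to 7.66%. These are shares of amplified poly(A) libraries and do not measure mitochondrial content.

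The mean of the 4 subunits of complex II, the succinate dehydrogenase genes, varied less between the eyes of a mouse than the means of the other complexes, a difference in spread that was not tested. In mouse 6, the mean log2 difference between the eyes was -0.28 for complex II but 1.52, 1.23, 1.74 and 1.27 for the nuclear subunits of complexes I, III, IV and V. In mouse 5 it was 0.09 for complex II, against -1.38, -1.06, -1.62 and -1.19 for the others in the same order. Over the 18 libraries the mean of complex II spanned 2.39-fold, and that of the nuclear subunits of complex IV 12.95-fold. The SD of the difference over 9 mice was 0.42 for complex II and 0.76 to 1.02 for the nuclear subunits of the other complexes. The members of complex II partly offset each other in this mean. *Sdhc*, a membrane anchor, differed by -1.09 in mouse 6 and by 0.73 and 0.77 in mice 2 and 5, where *Sdhb*, the iron-sulfur subunit, was at 0.20, -0.86 and -0.50. Taken singly, the SD of the difference over mice was 0.46 for *Sdha*, 0.45 for *Sdhb*, 0.70 for *Sdhc* and 0.57 for *Sdhd*, against a median of 1.05 over the 78 other nuclear subunits. That median depends on coding length, being 1.11 for the 50 others under 500 nucleotides, 0.91 for the 18 of 500 to 1000 and 0.40 for the 10 over 1000. *Sdha*, with a coding length of 1992 nucleotides, was thus above the median of its class, *Sdhb* (846) was just below the lowest of its class (0.48), and *Sdhc* (507) and *Sdhd* (477) were below the medians of theirs but within the range of single subunits. *Sdhc* spanned 6.31-fold over the 18 libraries.

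**Figure D3:**
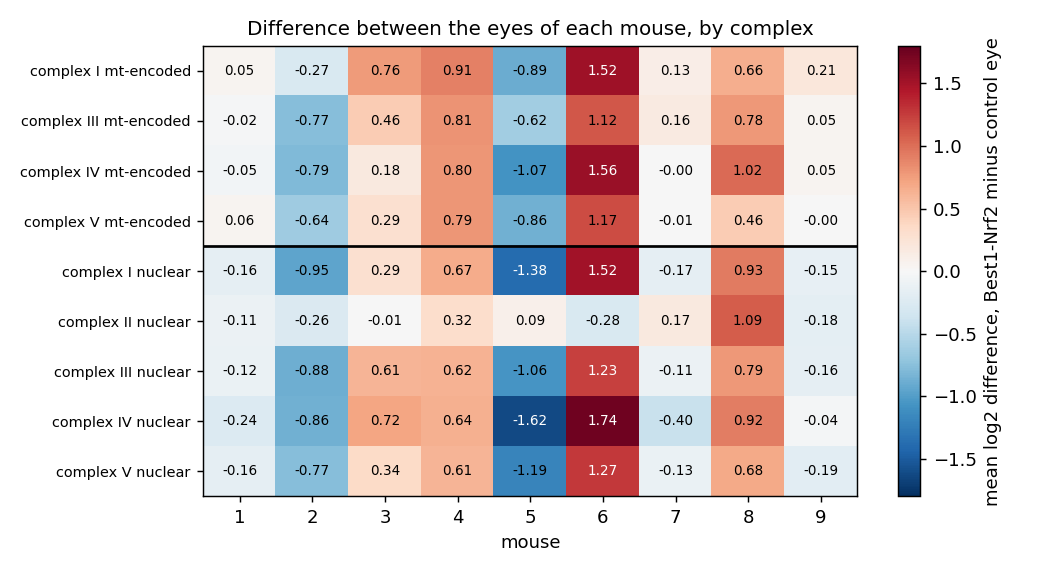
Each cell gives the mean log2 difference between the Best1-Nrf2 and the control eye of a mouse (columns) for the subunits of a complex, mitochondrially encoded above the black line and nuclear below it (rows), with red for higher and blue for lower in the Best1-Nrf2 eye. Mice 5 and 6 swing from -1.62 to 1.74 in the nuclear subunits of complex IV, while the mean of complex II is at 0.09 and -0.28.

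The exception for complex II was mouse 8, with a difference of 1.09. *Sdha*, the flavoprotein that oxidizes succinate, was at 97.7 CPM in control replicate 8, the smallest library, and at 205 to 328 CPM in the other 8 control eyes. In Best1-Nrf2 eyes it was at 224, 285 and 342 CPM (lowest, median, highest). Thus the low control eye of mouse 8 was the only value below the Best1-Nrf2 range by a wide margin. *Sdhd* was at 145, 239 and 337 CPM in control and at 168, 216 and 316 CPM in Best1-Nrf2 eyes (log2 fold change -0.06, SE 0.20, edgeR adjusted p = 0.96). *Sdhb* and *Sdhc* had log2 fold changes of -0.06 and 0.25. Without mouse 8, the median of complex II was -0.01.

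How much a nuclear subunit varied between eyes of the same group went with its coding length. For the 45 nuclear subunits with a coding length under 500 nucleotides and a mean of at least 6 log2 CPM, the median SD of log2 CPM over the 9 control eyes was 1.13. For the 18 of 500 to 1000 nucleotides it was 0.73, and for the 11 over 1000 it was 0.31. Other protein-coding genes at these levels had 0.74, 0.48 and 0.52 in the same classes, and the ribosomal protein genes 1.18, 0.85 and 0.50, the last from only 2 genes. Across the 74 subunits, which share libraries and depth, the Spearman correlation of coding length with this SD was -0.83 in control and -0.85 in Best1-Nrf2 eyes, and across 2453 other protein-coding genes it was -0.05 and -0.06.

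Subunits with long coding sequences were among the steadiest. *Ndufv1* ranged only from 123 to 156 CPM in control eyes (SD of log2 CPM, 0.11), and *Atp5b*, the catalytic beta subunit of complex V, from 1205 to 1730 CPM (SD 0.21). *Uqcrc1*, a core subunit of complex III, had an SD of 0.23. By contrast *Uqcr10* of the same complex ran from 131 to 1739 CPM in control eyes (SD 1.28), and *Atp5k* of complex V from 56.6 to 929 CPM (SD 1.55). Hence large and small subunits of 1 complex did not keep a fixed proportion across eyes. Exceptions were *Ndufv3*, with a long coding length and an SD of 1.21, and *Cox7a2l*, a short gene whose product helps join complexes III and IV, with 0.37. *Sdhd*, also short, had 0.38. The coding length used is the longest annotated for a gene, 1404 nucleotides for *Ndufv3* and 1440 for *Uqcrc1*. Their median coding transcripts are shorter, with 645 and 580 nucleotides, so the length class of both depends on the form taken.

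**Figure D4:**
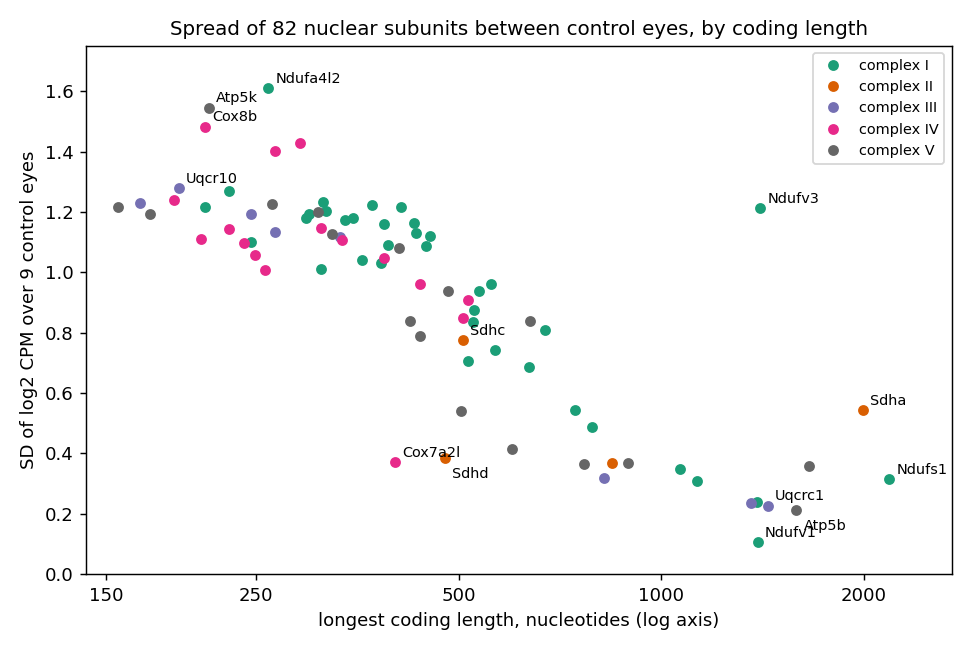
Each point is 1 of the 82 tested nuclear subunits, with its longest coding length on a log axis and the SD of its log2 CPM over 9 control eyes, colored by complex. The SD is 1.55 for *Atp5k* and 0.11 for *Ndufv1*, the highest point is *Ndufa4l2* with 1.61, a gene of very low counts, and *Ndufv3*, *Cox7a2l* and *Sdhd* lie off the trend.

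For complexes III and V, the named nuclear subunits with the highest level showed no significant difference. *Uqcr10* was at 131, 231 and 1739 CPM in control and at 140, 235 and 4776 CPM in Best1-Nrf2 eyes (log2 fold change 0.23, SE 0.36). *Atp5k* was at 56.6, 105 and 929 CPM in control and at 60.2, 92.8 and 3489 CPM in Best1-Nrf2 eyes (log2 fold change -0.20, SE 0.42). The medians were close and the highest eye was that of mouse 3 in every case. The direction of *Atp5k* turned in 4 of 20 alternatives, to a log2 fold change of 0.99 with the rod and cone marker covariate. *Atp5g1*, *Atp5g2* and *Atp5g3*, which encode the same c-ring protein of complex V from different genes, had log2 fold changes of 0.12, 0.10 and -0.05. *Ndufa1* of complex I was at 78.7, 132 and 944 CPM in control and at 98.0, 157 and 2722 CPM in Best1-Nrf2 eyes (log2 fold change 0.49, SE 0.35, edgeR adjusted p = 0.67, higher in 7 of 9 mice).

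Several complex IV subunits have a form used in heart and skeletal muscle and another used elsewhere, and both were measured here. *Cox8a* (ENSMUSG00000035885, chr19:7215153-7217616, GRCm38), the general form of a small subunit, was at 317, 467 and 3131 CPM (lowest, median, highest) in control and at 354, 581 and 3434 CPM in Best1-Nrf2 eyes. *Cox8b* (ENSMUSG00000025488, chr7:140898945-140900446), the form of heart, skeletal muscle and brown fat, was at 221, 457 and 5040 CPM in control and at 134, 276 and 10859 CPM in Best1-Nrf2 eyes. The groups overlapped for both genes, and the Best1-Nrf2 eye of mouse 3 was by far the highest for *Cox8b*. Its log2 fold change was -0.64 (SE 0.41, edgeR adjusted p = 0.61, lower in 6 of 9 mice). Without the mouse block it was 0.34, and with the mean of the rod and cone markers as a covariate 0.63, which turns its direction. With the ribosomal protein covariate it was -0.90 (edgeR adjusted p = 0.093).

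Set against *Cox8a* of the same library, *Cox8b* was lower with Best1-Nrf2 in 8 of 9 mice. The log2 ratio of *Cox8b* to *Cox8a* was -0.52, -0.20 and 1.499 (lowest, median, highest) in control and -1.59, -1.06 and 1.66 in Best1-Nrf2 eyes. The mean difference between the eyes was -0.90 ± 0.92 (SD, n = 9), with a 2-sided exact sign-flip permutation p of 0.027. Over the 6 isoform pairs compared the adjusted p was 0.164, so the difference did not pass the correction. The smallest p that 9 pairs allow is 0.0039. For the other 5 pairs the adjusted p values were between 0.445 and 0.906.

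The skeletal muscle forms *Cox6a2* and *Cox7a1* were low in all eyes but 1. *Cox6a2* was at 0.68, 2.05 and 16.7 CPM in control eyes and at 0.92, 4.97 and 270.2 CPM in Best1-Nrf2 eyes, whereas its general form *Cox6a1* was at 221, 363 and 1979 CPM and 209, 341 and 2009 CPM. *Cox7a1* was at 2.72, 5.04 and 37.9 CPM in control and at 3.27, 4.74 and 297.6 CPM in Best1-Nrf2 eyes, and *Cox7a2*, its general form, at 120.0, 199 and 1024 CPM and 130.3, 201 and 1255 CPM. The top value of both muscle forms was that of Best1-Nrf2 replicate 3, the library with the highest sum of skeletal muscle markers. Neither *Cox8b* nor *Cox7a1* followed these markers in every library. In control replicate 3, where the marker sum was 86.9 CPM, they were at 5040 and 37.9 CPM, each the highest of the control eyes. In Best1-Nrf2 replicate 9, where the sum was 848 CPM, *Cox8b* was at its lowest and *Cox7a1* at 4.49 CPM. The source of these values was not tested. Without mouse 3, the log2 fold change of *Cox8b* was -0.83 (edgeR adjusted p = 0.49) and that of *Cox7a1* was -0.10. The sum of the adipocyte markers was 3.18 to 36.5 CPM over all libraries, also highest in Best1-Nrf2 replicate 3.

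**Figure D5:**
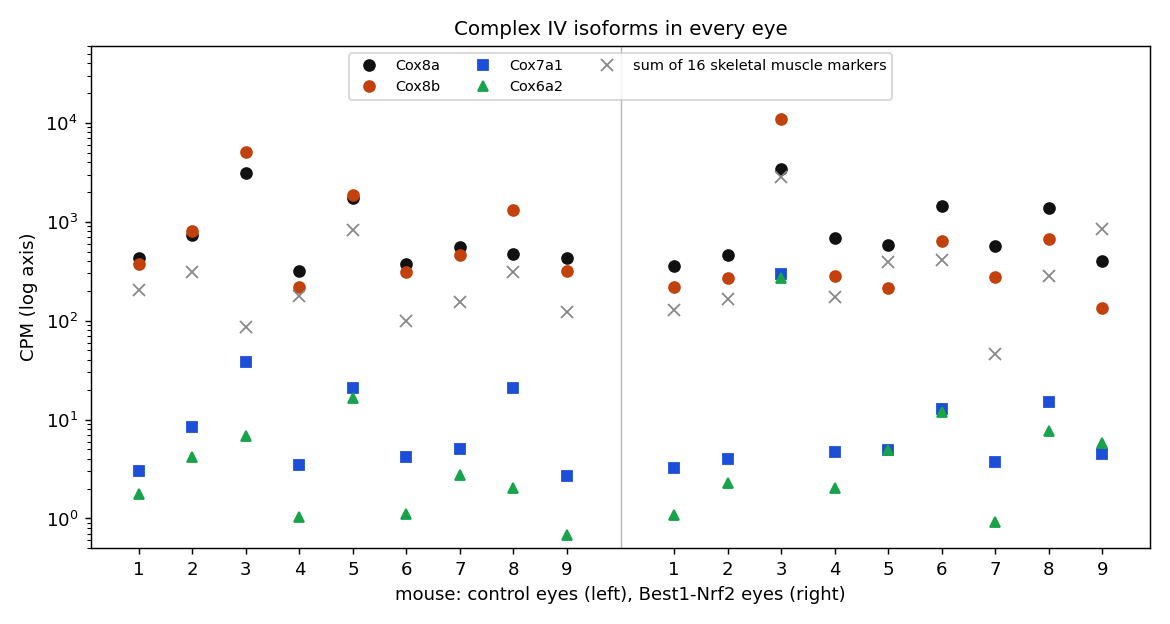
CPM on a log axis is plotted for *Cox8a*, *Cox8b*, *Cox7a1*, *Cox6a2* and the sum of 16 skeletal muscle markers in each of the 9 control (left) and 9 Best1-Nrf2 eyes (right). *Cox6a2* and *Cox7a1* reach 270.2 and 297.6 CPM in Best1-Nrf2 replicate 3 and stay at or below 37.9 CPM elsewhere, and *Cox8b* lies under *Cox8a* in the Best1-Nrf2 eyes other than that of mouse 3.

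The remaining forms gave no difference past the test. *Cox4i1*, the general form of a regulatory subunit, was at 418, 636 and 1996 CPM in control and 365, 570 and 1482 CPM in Best1-Nrf2 eyes, and *Cox4i2*, the form known from lung and from low oxygen, at 0.57, 1.70 and 4.16 CPM and 0.54, 0.83 and 4.73 CPM. The log2 fold change was -0.07 (SE 0.32) for *Cox4i1* and -0.65 (SE 0.54) for *Cox4i2*. Both turned with the rod and cone marker covariate, to 1.41 and 2.07, and *Cox4i1* changed sign in 5 of 20 alternatives. Without a covariate, *Cox6b1* and its testis form *Cox6b2* had 0.17 and 0.24. *Cox6b2* was detected in all 18 libraries, at 19.2 to 537 CPM. *Ndufa4l2*, the form of *Ndufa4* that low oxygen induces, was at 0.07 to 7.19 CPM, near the detection limit, and *Ndufa4* at 368 to 3540 CPM. Their log2 fold changes were 0.02 and -0.02.

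Genes that serve the same complexes without being subunits did not pass the test either. Of 50 assembly factors tested, 0 were called in either direction (median log2 fold change 0.02), and of 78 proteins of the mitochondrial ribosome, which translates the 13 mitochondrial messages, also 0 (median 0.01). The same held for 24 factors of mitochondrial gene expression (0.06), 13 enzymes of the tricarboxylic acid cycle (-0.03), 13 enzymes of coenzyme Q synthesis (-0.11), 7 carriers of ATP, phosphate and the outer-membrane pore (0.10) and 6 carriers and subunits outside the symbol rule (-0.08). The background was the same 4.25% of all genes called.

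The promoters of the nuclear subunits were read for the element through which Nrf2 acts. RefSeq promoter windows of GRCm38.p6, from 250 bases before to 50 after the start, were found for 68 of the 84 nuclear subunits. The core of the antioxidant response element, TGACNNNGC on either strand, was present for 9 of them, 13.2%, against 13.99% of 27025 genes. Those were *Atp5o*, *Cox5b*, *Ndufa1*, *Ndufa7*, *Ndufa9*, *Ndufa10*, *Ndufa11*, *Ndufs5* and *Ndufv2*. The NRF1 motif, GCGCA and GCGC around any base, was present on either strand for 17, 25% of them, against 5.19% of genes, and its form with T as that base, a palindrome that the first count includes, for 5, 7.35%, against 1.07%. The letters TATAAA, on either strand, were found for 7, 10.3%, against 15.7% of genes. A match of letters is not evidence of binding.

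The following windows show these features, with motif matches in capitals and the gene strand read 5′ to 3′, so that the last 50 bases follow the start RefSeq gives. For *Ndufa1* that start lies upstream of the gene as GENCODE places it, so its whole window is upstream of the gene measured here. *Ndufa1* is shown for its antioxidant response element core, found on the opposite strand as GCGTCGTCA, *Sdha* for its 3 NRF1 motifs, and *Cox8a* and *Cox8b* as the general and the muscle form of 1 subunit, of which *Cox8b* alone carries TATAAA.
Ndufa1, chrX:37191189-37191488, minus strand: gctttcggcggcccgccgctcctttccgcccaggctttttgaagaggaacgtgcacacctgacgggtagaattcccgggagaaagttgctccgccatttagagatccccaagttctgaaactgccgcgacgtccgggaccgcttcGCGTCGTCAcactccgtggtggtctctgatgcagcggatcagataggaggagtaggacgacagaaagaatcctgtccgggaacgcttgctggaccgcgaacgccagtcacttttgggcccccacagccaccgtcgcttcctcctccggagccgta
Sdha, chr13:74350191-74350490, minus strand: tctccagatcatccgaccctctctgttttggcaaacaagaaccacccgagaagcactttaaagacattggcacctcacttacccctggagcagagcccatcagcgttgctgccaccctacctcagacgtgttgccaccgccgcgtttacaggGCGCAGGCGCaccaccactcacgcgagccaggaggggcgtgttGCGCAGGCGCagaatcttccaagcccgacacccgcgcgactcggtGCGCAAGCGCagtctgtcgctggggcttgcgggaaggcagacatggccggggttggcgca
Cox8a, chr19:7217567-7217866, minus strand: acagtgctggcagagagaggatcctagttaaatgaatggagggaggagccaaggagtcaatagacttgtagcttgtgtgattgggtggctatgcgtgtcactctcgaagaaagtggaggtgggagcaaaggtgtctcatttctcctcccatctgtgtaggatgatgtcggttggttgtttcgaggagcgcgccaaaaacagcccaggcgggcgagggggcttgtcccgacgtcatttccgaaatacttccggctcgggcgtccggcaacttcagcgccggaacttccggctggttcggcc
Cox8b, chr7:140900397-140900696, minus strand: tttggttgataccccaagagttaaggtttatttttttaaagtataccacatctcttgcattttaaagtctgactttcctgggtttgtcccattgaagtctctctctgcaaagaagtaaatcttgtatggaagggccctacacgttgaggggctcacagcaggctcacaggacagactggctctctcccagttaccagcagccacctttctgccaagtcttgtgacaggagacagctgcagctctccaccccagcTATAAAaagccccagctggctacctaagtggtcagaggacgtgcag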

How the data were processed

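RNA of 18 eyecups from 9 mice labelled *rd1* was profiled by the authors, who amplified poly(A) RNA with a low-input kit. The deposited values are unscaled whole numbers for each Ensembl gene, read here as rounded expected counts, which the values alone do not settle. Per the methods, the authors used STAR with mm10 and Ensembl release 91, counted with featureCounts, and in parallel ran Salmon, which the submitters' processing notes give as version 0.8.1 beside FastQC. Which of these made the table is not given in the sources used here. No molecular identifiers are described, so duplicate reads count as separate. More than 1 sequencing run was made, and the labels used here do not map libraries to runs.

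In the labels, each number is shared by a Best1-Nrf2 and a control library. It was read as the mouse, since the methods pair the eyes of a mouse, and mouse was a block. The correlation of the eyes of a mouse, after group means were removed, had a median of -0.00095 (range, -0.37 to 0.64), so expression gave little further evidence of the pairs. No libraries of a group were duplicates (lowest chi-square per degree of freedom over 72 pairs, 50.6). Genes were kept by filterByExpr, scaled by TMM and tested in R 4.3.3 with edgeR 4.0.16 (quasi-likelihood F test), with p values adjusted by the Benjamini-Hochberg method over 18958 genes and a threshold of 0.05. CPM uses the TMM-scaled library sizes, log2 CPM a prior count of 2, and the SE comes from the F statistic. Levels per kilobase divide CPM by merged exon length of GENCODE mouse release M21 on GRCm38, another annotation release than the authors'. The statistics were tested on simulated counts of independent genes without mouse effects, with large changes planted in 200 genes. That setting lacks the shared shifts between eyes seen here, so it does not bear on changes of the sizes given above.

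Alternatives were no mouse block, RLE and upper-quartile scaling, DESeq2 1.42.0, other count filters, library sizes without mitochondrial genes, marker covariates and leaving out each mouse. Members, gene lists and tests were chosen with earlier results of these data known. By rule, *Nfe2l2*, the 13 mitochondrial subunits, the highest nuclear subunit per kilobase of each complex, the isoform pairs and the c-ring genes are named, together with any called gene. *Ndufb4*, *Ndufv1*, *Ndufv3*, *Atp5b*, *Uqcrc1*, *Sdha*, *Sdhb*, *Sdhc*, *Uqcr11*, *Atp5h*, *Cox7a2l*, the untested genes and those with a motif were named after their values were seen.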

Additional observations from a re-analysis of the deposited data

Results flagged for a closer look

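The lowest and the highest eye of each group were compared with the rest of the group by Dixon's gap ratio at its 95% critical value for 51 measures, which gave 102 groups. Of these, 12 stood out, and chance alone gives about 5.10. The measures share libraries, and 9 of the 12 come from the same eye, so they are not separate observations. *Uqcr10*, *Atp5k* and *Ndufa1* were screened because of their mean level over all libraries, which that eye raises. The number of flags can therefore not be weighed against chance.

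Best1-Nrf2 replicate 3 was the highest of its group for *Cox8b* (log2 CPM 13.41, next eye 9.39), *Uqcr10* (12.22, next 9.43), *Atp5k* (11.77, next 8.09), *Ndufa1* (11.41, next 8.74), *Cox6b2* (9.07, next 6.06), *Cox7a1* (8.22, next 3.91) and *Cox6a2* (8.08, next 3.57). It also had the highest log2 ratio of *Cox8b* to *Cox8a* (1.66, next -0.70). All of these genes have coding lengths under 500 nucleotides. The same eye had the highest ribosomal protein share and the highest sum of skeletal muscle markers, whose part in these values was not tested.

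Both eyes of mouse 3 had the lowest log2 ratio of mitochondrial to nuclear subunit counts of their group, with -0.84 in the control eye (next -0.24) and -1.05 in the Best1-Nrf2 eye (next -0.17).

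Control replicate 8, the smallest library, had the lowest mean of complex II (log2 CPM 6.53, next 7.27) and the highest *Nfe2l2* of the control eyes (7.06, next 6.60). It stayed below the Best1-Nrf2 eyes in *Nfe2l2*.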

How the results depend on the processing

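The count of subunits called was 0 under all 21 alternatives, including DESeq2, each mouse left out and an adjusted p of 0.1. The smallest adjusted p of any subunit under the other fits at the 0.05 threshold was 0.080 with the photoreceptor covariate and 0.093 with the ribosomal protein covariate. An unadjusted p under 0.05 was found for 68 subunits with the photoreceptor covariate, 5 without mouse 5, and at most 1 under each of the other fits. The share of counts moved by less than its SD over mice under its 11 alternatives, and so did the medians under all of their 20 but 1, the photoreceptor covariate, and the cause was not tested. There the median log2 fold change was 1.21 for mitochondrial and 1.46 for nuclear subunits, and 1.43, 1.51, 1.49 and 1.19 for complexes I, III, IV and V. The ribosomal protein covariate turned the medians of complexes I, III, IV and V to -0.06, -0.0088, -0.03 and -0.07. With the photoreceptor covariate 47 genes in all were called and *Nfe2l2* lost its call (1.90, adjusted p = 0.069). The difference in share ran from 0.018 to 0.534 percentage points with 1 mouse left out.

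Named subunits, none of them called, changed sign as follows. Without the replicate block, *Cox8b* was at 0.34, *Atp5k* at 0.74, *Ndufa4* at 0.094 and *Ndufa4l2* at -0.23, and no subunit gained a call. With the photoreceptor covariate, *Sdhd* was at 0.47, *Cox8b* at 0.63, *Atp5k* at 0.99, *Cox4i1* at 1.41, *Cox4i2* at 2.07, *Ndufa4* at 0.66, *Atp5g3* at 1.25 and *Ndufa4l2* at -0.47. The skeletal muscle covariate gave -0.019 for *Cox6a1*, -0.16 for *Cox7a1* and -0.35 for *Ndufa4l2*. The ribosomal protein covariate, chosen after the data were seen, gave -0.016 for *mt-Co2*, -0.030 for *mt-Atp8*, -0.0088 for *Uqcr10*, -0.14 for *Cox6a1*, -0.013 for *Cox6b1*, -0.10 for *Cox7a1*, -0.026 for *Cox7a2*, -0.26 for *Ndufa4l2*, -0.065 for *Atp5g1* and -0.025 for *Atp5g2*. *Ndufa4* was at 0.0038 with no count filter and *Ndufa4l2* at -0.0018 with upper-quartile scaling. The cause was not tested.

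With each mouse left out in turn, the log2 fold change ran from -0.037 to 0.37 for *mt-Co2*, -0.0017 to 0.39 for *mt-Co3*, -0.03 to 0.16 for *mt-Atp8*, -0.19 to 0.038 for *Sdhd*, -0.45 to 0.034 for *Atp5k*, -0.27 to 0.12 for *Cox4i1*, -0.15 to 0.29 for *Cox6a1*, -0.0021 to 0.37 for *Cox6b1*, -0.1 to 0.45 for *Cox7a1*, -0.035 to 0.37 for *Cox7a2*, -0.16 to 0.14 for *Ndufa4*, -0.28 to 0.33 for *Ndufa4l2*, -0.093 to 0.33 for *Atp5g1*, -0.035 to 0.24 for *Atp5g2* and -0.23 to 0.13 for *Atp5g3*.

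With 9 mice whose nuclear subunit levels spanned 6.81-fold over the eyes, changes smaller than the intervals given were not detectable, and near-identical nuclear copies limit what mitochondrial counts can show.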
